A study of Mus musculus with 8 samples.

Results

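The genes described are the proteasome subunits and their assembly factors, chosen as every array row whose platform gene symbol begins with Psm, a letter from a to g and a digit. The rule matched 50 rows for 50 genes, out of 19527 rows with a gene symbol and 22142 rows tested. The cells were alphaTC1.9, a mouse alpha cell line derived from a glucagon-producing pancreatic tumour, and their RNA was read on Clariom S arrays with 1 probe set per transcript cluster. Control cells gave 4 arrays, and another 4 came from IDE-KD cells, made with an siRNA against Ide, the gene of insulin-degrading enzyme. All cells grew in medium with 16 mM glucose and had no other treatment, per the labels, which call the source pancreatic tissue although it is a cell line. What the control cells received, how much siRNA was used and when the cells were collected is not stated. All arrays come from 1 cell line. The labels call the replicates biological and the RNA of each independent, but do not say whether they were separate cultures, so the spread behind each p-value may hold technical as well as biological variation. The symbol rule uses no measured value. The family and its leading genes Psmb3 and Psmc5 were put forward with the IDE-KD minus control differences known, however, and count as selected on those differences. Differences of members are therefore given as a description. Counts of members past a threshold are set beside the share of all rows, and nothing is read from them as a test of the family.

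The proteasome is the main protease of the cytosol and nucleus for proteins tagged with ubiquitin. Its core particle is a barrel of outer rings of alpha subunits, which gate the entry, and inner rings of beta subunits, some of which cut peptide bonds. A regulatory particle caps the barrel, with a base of ATPases that unfold substrates and a lid that removes ubiquitin. Interferon can replace the cutting beta subunits by immunoproteasome forms, which favour peptides for MHC class I, and other activators can bind in place of the regulatory particle. When proteasome activity is short, the transcription factor NFE2L1 raises the transcription of many subunit genes together.

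Values are log2 expression values, where a difference of 1 is a doubling, and errors of levels are standard deviations. The targeted gene Ide was lower on each IDE-KD array (7.91, 8.14, 7.92 and 8.05) than on any control array (8.66, 8.62, 8.72 and 8.48). The difference was -0.62 (SE 0.12), and its adjusted p from limma over all rows was nevertheless 1.00. Glucagon (Gcg), which defines alpha cells, had a level of 12.06 ± 0.07 on the control arrays and 12.06 ± 0.10 on the IDE-KD arrays (SD, n = 4 each). Correlations between arrays over all tested rows were 0.984 to 0.993 within groups and 0.984 to 0.991 between groups. The values of all tested rows spread least on IDE-KD arrays 1 and 3, with SDs of 2.16 and 2.13, while the other arrays had SDs of 2.20 to 2.25. These arrays also had the lowest means of exon control rows, 6.95 and 6.92 against 7.05 to 7.13. In bulk RNA from a culture, fewer cells expressing a gene and less of its RNA per cell cannot be told apart.

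Most proteasome genes gave signals above the low end of the arrays in both groups, and no class stood apart between IDE-KD and control cells. Of the 50 genes, 47 had a mean above 4.56, the median of the array control rows, which marks a low signal. These control rows include exon as well as intron rows, so 4.56 is not a pure background level. At or below it lay 9626 of the 22142 tested rows. A stricter mark is 6.87, the 95th percentile of the intron control row means. Below it lay 11 of the 50 genes and 16367 of the 22142 tested rows. These genes were Psmb9, Psmb10, Psma8, Psmb11, Psmd5, Psmd9, Psmd10, Psme2b, Psmg3, Psmg4 and Psmc3ip. The gene means over the 8 arrays ran from 3.20 (Psma8) to 9.89 (Psmd3). In IDE-KD cells 27 genes had a fitted difference above 0 and 23 below it, with a median of 0.0048. Over all tested rows 52.1% were above 0, with a median of 0.0074. The differences ran from -0.23 (Psmb3) to 0.19 (Psma8).

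**Figure D1:**
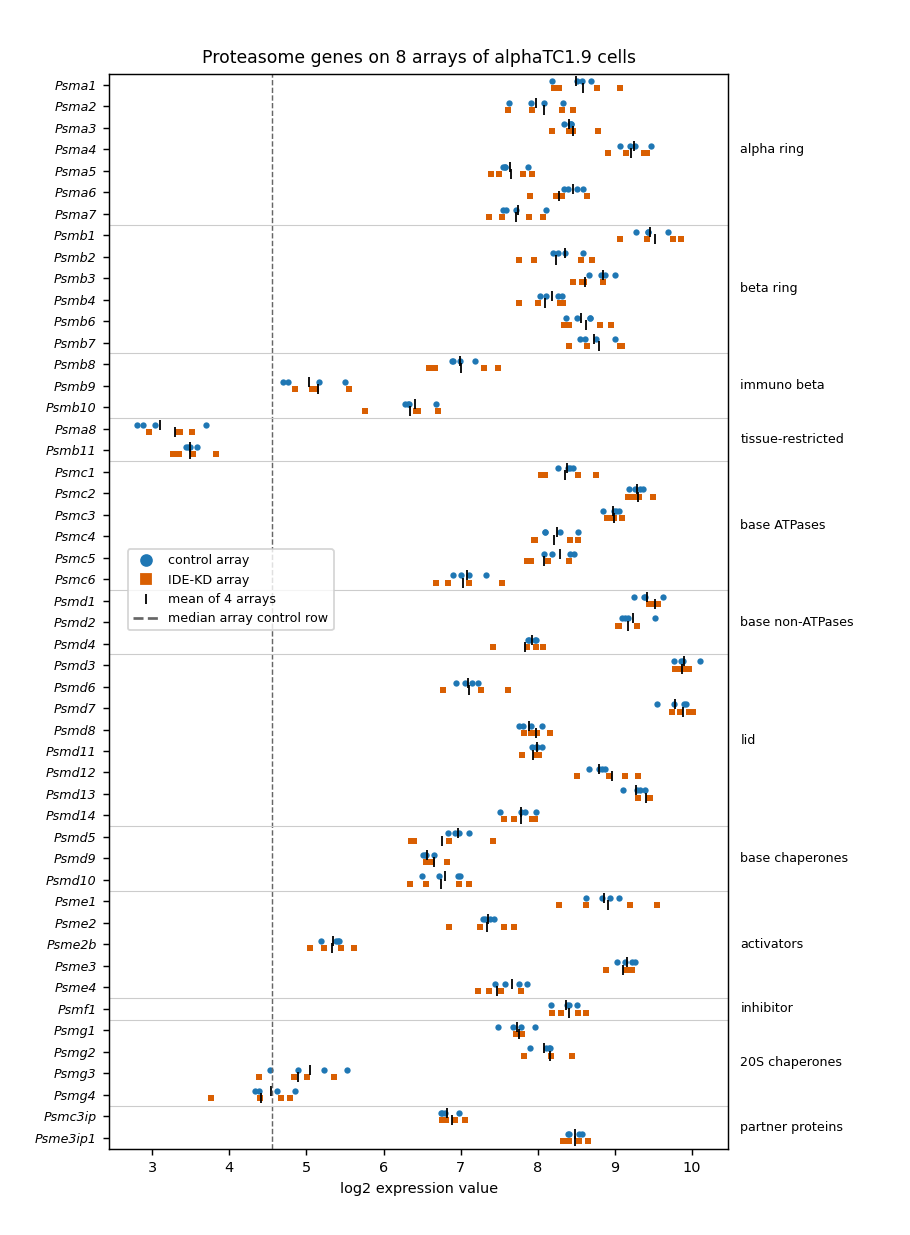
Log2 expression values (horizontal axis) of the 50 genes (vertical axis, by class) on 4 control arrays (blue circles) and 4 IDE-KD arrays (orange squares), with group means as black ticks. The dashed line is the median array control row at 4.56; Psma8, Psmb11 and Psmg4 have means below it, and the 2 groups overlap at every gene.

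The 7 alpha subunits of the core, Psma1 to Psma7, had means over the 8 arrays between 7.65 and 9.23. Of these genes 4 read higher and 3 lower in IDE-KD cells, with a median difference of 0.01. Psma6 had the lowest difference of the ring. Its control arrays read 8.40, 8.59, 8.52 and 8.35, and its IDE-KD arrays 7.90, 8.32, 8.24 and 8.64, so that the highest and the lowest value were both IDE-KD arrays. The log2 difference was -0.19 (SE 0.15, 95% confidence interval -0.52 to 0.14), and -0.066 without IDE-KD replicate 1.

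Psma2 had the highest difference of the alpha ring. It read 8.08, 7.91, 7.62 and 8.32 in control and 7.62, 8.46, 7.93 and 8.31 in IDE-KD cells. The ranges lay on top of each other, and the difference was 0.09 (SE 0.20). It was -0.034 without IDE-KD replicate 2 and 0.25 without IDE-KD replicate 1.

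Of the constitutive beta subunits 6 of 7 were measured. Psmb5, which carries the chymotrypsin-like activity, had no matching row and was not analysed here. The measured genes split evenly, 3 higher and 3 lower, with a median of -0.0089. Psmb6, whose product carries the caspase-like activity, read 8.36, 8.67, 8.51 and 8.68 in control and 8.34, 8.81, 8.41 and 8.95 in IDE-KD cells. Its difference was 0.07 (SE 0.16, 95% interval -0.26 to 0.41). Psmb7, whose product carries the trypsin-like activity, read 8.62, 9.01, 8.55 and 8.76 in control and 8.40, 9.07, 8.64 and 9.10 in IDE-KD cells. For both catalytic genes IDE-KD arrays 2 and 4 were above IDE-KD arrays 1 and 3, and the highest and the lowest of the 8 values were IDE-KD arrays. The difference of Psmb7 was 0.07 (SE 0.17). Without IDE-KD replicate 4 it was -0.036 for Psmb6 and -0.032 for Psmb7, and without IDE-KD replicate 1 it was 0.17 and 0.20.

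Psmb3, a beta subunit without a cutting site, had the lowest difference of all 50 genes. Control arrays read 8.67, 9.01, 8.83 and 8.88, and IDE-KD arrays 8.58, 8.46, 8.60 and 8.84. On 3 of the 4 IDE-KD arrays the value was below every control value, and on array 4 it lay within the control range. The group levels were 8.84 ± 0.14 and 8.62 ± 0.16 (SD, n = 4), a difference of -0.23 (SE 0.13, 95% interval -0.50 to 0.05), or 1.17-fold lower. Leaving out single arrays gave -0.30 to -0.17. Of the 6 genes of this ring, Psmb3 was the 1 gene whose lowest value was IDE-KD array 2.

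The 3 immunoproteasome genes had means of 7.002 for Psmb8, 5.09 for Psmb9 and 6.37 for Psmb10; signals of different probe sets cannot be ranked as RNA amounts. Psmb8, which takes the place of Psmb5, read 6.89, 7.19, 6.90 and 6.996 in control and 6.59, 7.31, 6.66 and 7.48 in IDE-KD cells. The 2 lowest and the 2 highest of its values were IDE-KD arrays, and the difference was 0.02 (SE 0.19). It was -0.14 without IDE-KD replicate 4 and 0.16 without IDE-KD replicate 1. Psmb9, which takes the place of Psmb6, read 4.76, 5.16, 4.70 and 5.50 in control and 5.12, 5.55, 4.86 and 5.07 in IDE-KD cells. The groups overlapped over most of their range, with a difference of 0.12 (SE 0.19), which was -0.015 without IDE-KD replicate 2 and 0.27 without control replicate 4.

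Psmb10, which takes the place of Psmb7, read 6.28, 6.33, 6.31 and 6.68 in control and 5.76, 6.45, 6.42 and 6.71 in IDE-KD cells. IDE-KD array 1 stood alone at the low end, and the other IDE-KD arrays lay within or just above the control range. The difference was -0.06 (SE 0.19), and 0.13 without that array. Immune cells use these subunits constitutively, so their markers are given beside them. All 8 measured immune markers had means below 4.56, among them the leukocyte gene Ptprc with a level of 3.65 ± 0.32 over the control arrays and 3.71 ± 0.48 over the IDE-KD arrays (SD, n = 4 each). Of the 8 markers 4 read higher and 4 lower in IDE-KD cells, with a median difference of 0.0083. The groups did not overlap for 1 of the 8, against 2.80% of all rows. It was Cd3e, a T cell receptor component with the highest difference of the 8, 0.44 (SE 0.12). Cd3e had levels of 2.92 ± 0.14 and 3.36 ± 0.11 (SD, n = 4 each). Its adjusted p from limma was 1.00. The part of these markers in the immunoproteasome values was not tested. Summed over the 8 markers, the log2 level was 24.8 to 26.3 on control arrays and 24.98 to 25.9 on IDE-KD arrays.

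The tissue-restricted core subunits were near the low end of the signal. Psmb11, known from thymic cortical epithelium, read 3.58, 3.44, 3.49 and 3.47 in control and 3.53, 3.35, 3.27 and 3.83 in IDE-KD cells. Psma8, known from spermatogenic cells, read 2.89, 2.81, 3.70 and 3.04 in control and 3.36, 3.52, 3.34 and 2.96 in IDE-KD cells. All values of both genes were below the median array control row. The difference of Psma8 was 0.19 (SE 0.19), which became 0.38 without control replicate 3 and 0.09 without control replicate 2.

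The 6 ATPase genes of the base, Psmc1 to Psmc6, had means of 7.06 to 9.30, with 2 higher, 4 lower and a median difference of -0.03. Psmc5 was the lowest. It read 8.18, 8.41, 8.08 and 8.47 in control and 7.86, 8.40, 7.91 and 8.14 in IDE-KD cells. IDE-KD arrays 1 and 3 lay below all control values, and arrays 2 and 4 within the control range. The levels were 8.29 ± 0.19 and 8.08 ± 0.25 (SD, n = 4), with a difference of -0.21 (SE 0.15, 95% interval -0.53 to 0.12), or 1.15-fold lower. It ranged from -0.32 without IDE-KD replicate 2 to -0.13 without IDE-KD replicate 1.

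Psmc3, the ATPase gene with the highest difference, varied little. It read 8.85, 9.05, 8.98 and 9.01 in control and 8.98, 8.99, 8.90 and 9.10 in IDE-KD cells, a difference of 0.02 (SE 0.11). The 95% interval of -0.23 to 0.26 was the narrowest of the ATPase class.

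Among the other base genes, Psmd1 and Psmd2 encode the large scaffold subunits and Psmd4 a receptor for ubiquitin chains. Psmd1 read 9.63, 9.38, 9.25 and 9.39 in control and 9.45, 9.52, 9.56 and 9.57 in IDE-KD cells. The IDE-KD arrays were close together within the control range, with SDs of 0.16 and 0.06, and the difference was 0.11 (SE 0.12). Psmd4 read 7.87, 7.97, 7.89 and 7.98 in control and 7.41, 7.98, 7.86 and 8.07 in IDE-KD cells. Here the control arrays were close together and IDE-KD array 1 was low. The difference was -0.10 (SE 0.15), and 0.04 without that array.

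The 8 lid genes had means of 7.10 to 9.89, and 6 of them read higher in IDE-KD cells, with a median of 0.05 that was 0.13 without IDE-KD replicate 1 and 0.03 without IDE-KD replicate 4. Psmd12, a scaffold subunit of the lid, had the highest difference. It read 8.87, 8.83, 8.66 and 8.80 in control and 8.51, 9.30, 8.93 and 9.13 in IDE-KD cells. On 3 IDE-KD arrays it was above all control values, and on array 1 below all of them. The difference was 0.17 (SE 0.16, 95% interval -0.17 to 0.52), with a range of 0.06 without IDE-KD replicate 2 to 0.33 without IDE-KD replicate 1.

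Psmd11 had the lowest difference of the lid genes, with 8.05, 7.98, 7.93 and 7.996 in control and 8.01, 7.79, 7.98 and 7.98 in IDE-KD cells. IDE-KD array 2 stood below the other 7 values, which lay close together. The difference was -0.05 (SE 0.11). Psmd14, which encodes the deubiquitinase of the lid, had group means of 7.78 and 7.79 and a difference of 0.0092 (SE 0.14).

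Psmd5, Psmd9 and Psmd10 encode chaperones that help to assemble the base and leave the finished particle. Psmd5 spread widely on the IDE-KD arrays, with 6.84, 6.98, 6.92 and 7.11 in control and 6.36, 7.42, 6.40 and 6.86 in IDE-KD cells. Its difference was -0.21 (SE 0.20), which was -0.43 without IDE-KD replicate 2 and -0.071 without IDE-KD replicate 1. Psmd9 read 6.51, 6.55, 6.54 and 6.66 in control and 6.63, 6.82, 6.55 and 6.63 in IDE-KD cells, a difference of 0.09 (SE 0.11). Both groups of Psmd9 lay within a narrow band.

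Of the activator genes, Psme1 and Psme2 encode the interferon-inducible PA28 alpha and beta subunits, and Psme3 and Psme4 encode nuclear activators. Psme1 had the widest spread of the family in IDE-KD cells. It read 8.84, 9.05, 8.62 and 8.94 in control and 8.28, 9.54, 8.63 and 9.19 in IDE-KD cells, a range of 1.26 within that group against 0.43 in control. The group means of 8.86 and 8.91 were close, and the difference of 0.05 (SE 0.23) was -0.16 without IDE-KD replicate 2 and 0.26 without IDE-KD replicate 1. Psme4, with the lowest difference of the class, read 7.58, 7.76, 7.86 and 7.45 in control and 7.53, 7.79, 7.37 and 7.22 in IDE-KD cells. IDE-KD arrays 3 and 4 were below all control values, and the difference was -0.19 (SE 0.15). It was -0.29 without IDE-KD replicate 2 and -0.10 without IDE-KD replicate 4. Psme2b is a close copy of Psme2, and its probe set may share signal with that of Psme2, so both are uncertain. The difference was -0.019 for Psme2 and -0.016 for Psme2b.

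Psmf1, which encodes the inhibitor PI31, read 8.17, 8.38, 8.41 and 8.50 in control and 8.30, 8.52, 8.18 and 8.63 in IDE-KD cells. The groups overlapped, with a difference of 0.04 (SE 0.13). Psmg1 to Psmg4 encode chaperones of core particle assembly. Psmg3 had low and scattered signals, 4.53, 4.89, 5.53 and 5.23 in control and 4.84, 5.01, 4.38 and 5.36 in IDE-KD cells, with a difference of -0.15 (SE 0.23) that was -0.32 without control replicate 1 and 0.02 without IDE-KD replicate 3 and 0.01 without control replicate 3. Psmg2 read 8.15, 8.16, 8.10 and 7.91 in control and 7.82, 8.44, 8.17 and 8.18 in IDE-KD cells, a difference of 0.07 (SE 0.14). Psmg1 had the narrowest IDE-KD range of the family, 0.081, against 0.48 in control.

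The symbol rule also took 2 genes that encode no subunit. Psmc3ip, which acts in DNA strand exchange in meiosis, read 6.98, 6.80, 6.75 and 6.75 in control and 6.76, 7.06, 6.92 and 6.82 in IDE-KD cells, a difference of 0.07 (SE 0.12). Psme3ip1, whose product binds the Psme3 activator, read 8.57, 8.40, 8.41 and 8.54 in control and 8.53, 8.33, 8.65 and 8.41 in IDE-KD cells, a difference of 0.00044 (SE 0.12). The groups overlapped for both genes, although IDE-KD array 2 of Psmc3ip and IDE-KD arrays 2 and 3 of Psme3ip1 lay outside the control range.

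In limma, fitted on all 22142 rows with Benjamini-Hochberg adjustment, 0 of the 50 genes and 0.00% of all rows passed an adjusted p of 0.05 in either direction. At an unadjusted p under 0.05 there were also 0 of the 50 genes, against 2.69% of all rows higher and 1.91% lower. The groups did not overlap at 0 of the 50 genes, against 2.80% of all rows (1.39% higher and 1.41% lower in IDE-KD cells). The 95% interval lay inside a 1.5-fold change in both directions for 46 genes, or 92.0%, against 83.6% of all rows. Among rows with a mean level of 7 to 10 it did so for 96.5%, and for all 39 of the 50 genes in that range. The 4 genes with wider intervals were Psma8, Psmd5, Psmg3 and Psmg4. The count of 27 genes with a difference above 0 was 17 without IDE-KD replicate 2, 17 without IDE-KD replicate 4, 36 without IDE-KD replicate 1 and 35 without IDE-KD replicate 3. Of the 25 genes given with all their array values, 15 took both signs when single arrays were left out, as did the medians of 9 of the 12 classes. The exceptions among the classes were the tissue-restricted subunits, the lid and the partner proteins.

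**Figure D2:**
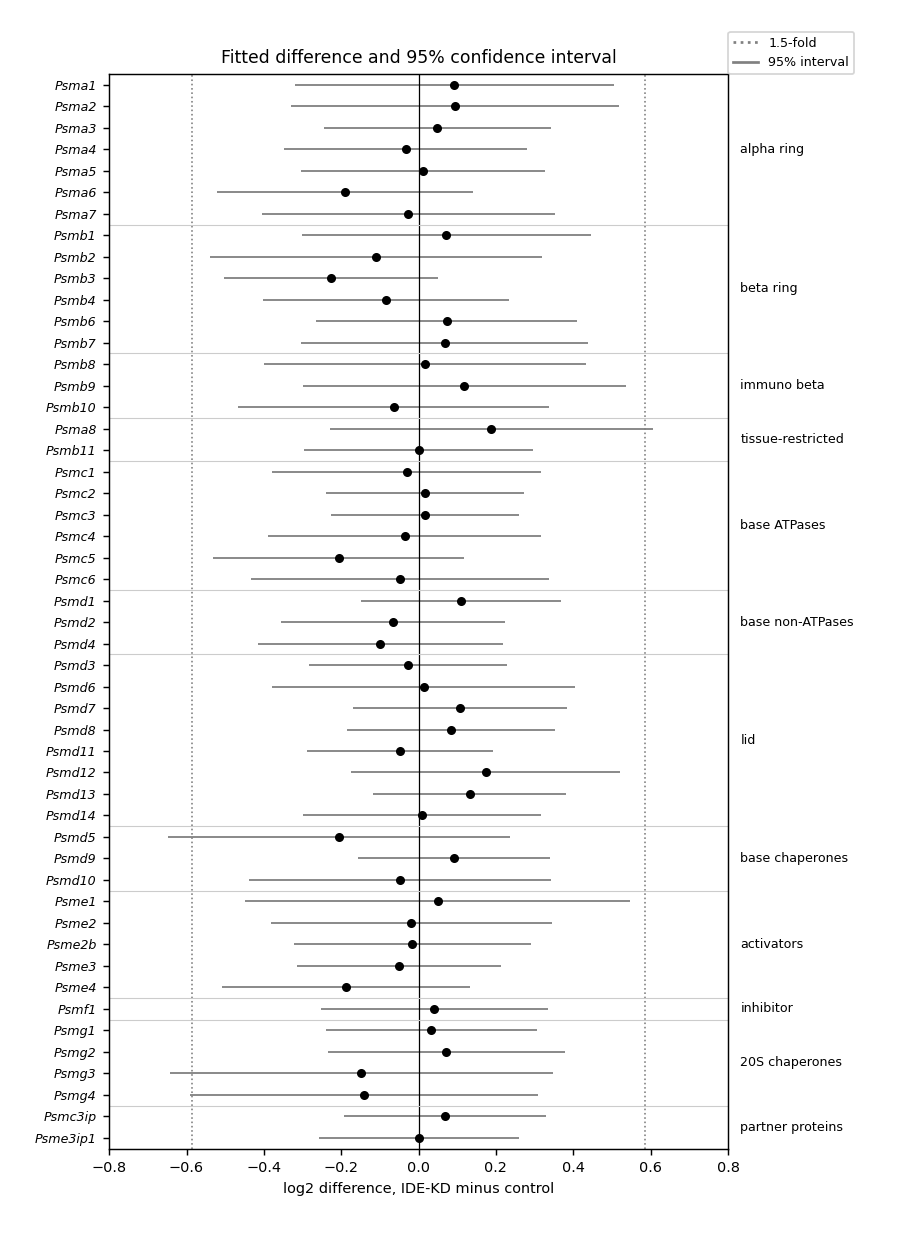
Fitted log2 difference, IDE-KD minus control (points, horizontal axis), with its 95% confidence interval (bars) for each of the 50 genes (vertical axis, by class). All 50 intervals hold 0, and 46 lie between the dotted lines that mark a 1.5-fold change.

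The family differed between the arrays of a group. Each gene was set against its own mean over the 8 arrays, and these deviations were averaged over the 50 genes. The mean was -0.05, 0.06, -0.06 and 0.06 on control arrays 1 to 4, and -0.23, 0.20, -0.13 and 0.14 on IDE-KD arrays 1 to 4. In both groups the arrays numbered 2 and 4 were thus above those numbered 1 and 3, and the range in IDE-KD cells, 0.43, was wider than the 0.13 in control. This grouping of the arrays was chosen after the values were seen. IDE-KD array 1 held the lowest of the 8 values for 27 of the 50 genes, and IDE-KD array 2 the highest for 19, or 54.0% and 38.0%. Among rows with a mean level of 7 to 10 these shares were 22.5% and 25.7%, and IDE-KD array 3 was the lowest for 25.9% of those rows and for 5 of the 50 genes. The sets are unlike, since only 39 of the 50 genes had a mean in that range. Shares over all tested rows were not computed.

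**Figure D3:**
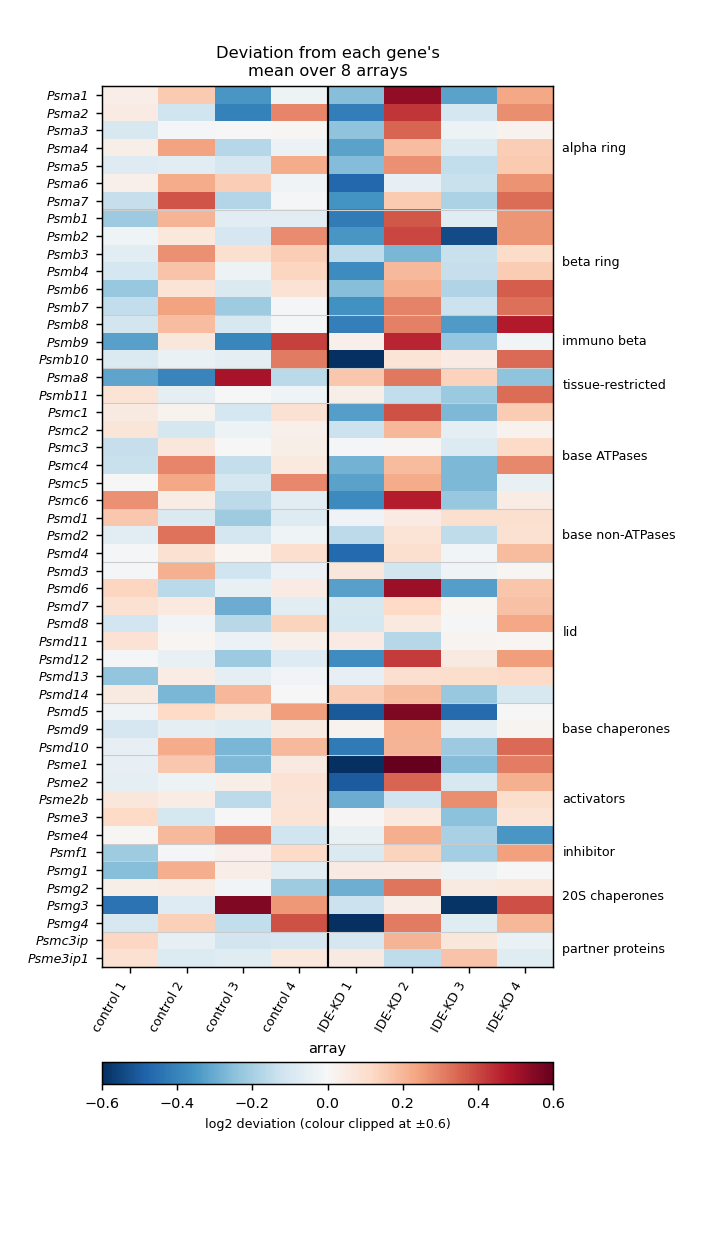
Deviation of each of the 50 genes (rows) from its own mean over 8 arrays (columns), in log2 units, with red above and blue below that mean and colours clipped at 0.6. IDE-KD array 1 is blue and IDE-KD array 2 red for most core and ATPase genes and for the activators Psme1 and Psme2. The other activators do not share this clearly, and several lid genes and both partner proteins stay pale.

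Single genes showed this order unequally. IDE-KD arrays 1 and 3 were both below IDE-KD arrays 2 and 4 for 35 of the 50 genes, or 70.0%, against 24.2% of all tested rows. The count was 7 of 7 for the alpha subunits, 5 of 6 for the constitutive beta subunits and 6 of 6 for the ATPases. It was 2 of 3 for the immunoproteasome genes, 4 of 8 for the lid and 0 of 2 for the partner proteins. The reverse order, with arrays 1 and 3 above, was seen for 2 genes, Psmd11 and Psme3ip1, against 23.2% of all rows. In control cells arrays 1 and 3 were both below arrays 2 and 4 for 22 genes, 44.0%, against 19.5% of all rows. The SD over the IDE-KD arrays exceeded that over the control arrays for 40 genes, 80.0%, against 61.8% of all rows. The median SD of the family was 0.15 in control and 0.25 in IDE-KD cells. Over all tested rows it was 0.17 and 0.21, and over rows with a mean level of 7 to 10 it was 0.12 and 0.16.

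Other values moved with this order. Among the 5135 rows with a mean level of 7 to 10, where 39 of the 50 genes lay, IDE-KD arrays 1 and 3 were both below arrays 2 and 4 for 41.9%, against 76.9% of those 39 genes. In control cells the shares were 23.9% of these rows and 41.0% of the 39 genes. The SD was larger in IDE-KD cells for 64.8% of the rows and 82.1% of the genes, and the difference was above 0 for 40.2% of the rows and 56.4% of the genes. The mean deviation of these rows was -0.06, 0.06, -0.10 and 0.04 on IDE-KD arrays 1 to 4, the same signs as the family at smaller size, and its lowest value was array 3, not array 1. The small SD and low exon control means of IDE-KD arrays 1 and 3 run the same way; the part of the exon control rows in this order was not tested. When each array was scaled to 1 mean and SD, the family means on the IDE-KD arrays were -0.18, 0.15, -0.05 and 0.11, and IDE-KD arrays 1 and 3 were both below arrays 2 and 4 for 25 genes, against 23.0% of all rows. After quantile normalization of the tested rows they were -0.18, 0.15, -0.06 and 0.11, with 25 genes against 21.5%. The range over the IDE-KD arrays, 0.43 as deposited, was 0.33 under both. Subtracting the median of each array went the other way, with a range of 0.46 and 38 genes in this order, against 28.8% of all rows.

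**Figure D4:**
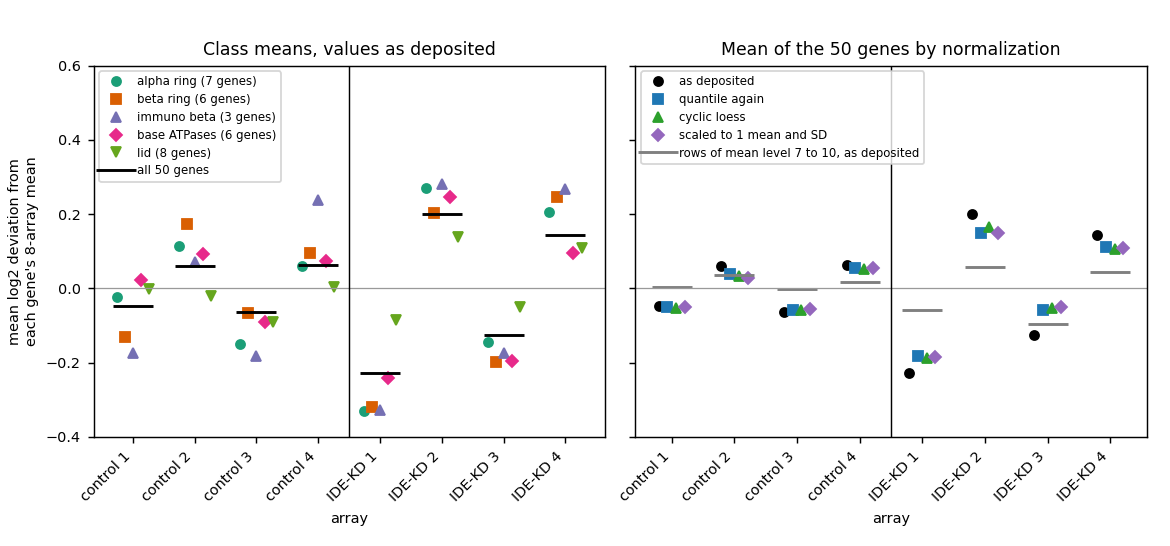
Mean log2 deviation from each gene's 8-array mean (vertical axis) on each array (horizontal axis), for 5 classes and all 50 genes as deposited (left) and for all 50 genes under other normalizations (right). The IDE-KD arrays run from -0.23 to 0.20 as deposited and from -0.18 to 0.15 after quantile normalization, and grey bars give rows of mean level 7 to 10.

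Promoters are shown to set the order across arrays beside the sequence of the genes. RefSeq promoters (GRCm38.p6) were matched for 42 of the 50 genes, with 46 promoters in all, and the 250 bases before each start were searched on both strands. The core of the antioxidant response element bound by NFE2L1, TGACNNNGC, was in 4 of the 46 promoters, 8.70%, against 10.2% of all 32851. CCAAT was in 34.8%, against 33.8%. The core of the interferon-stimulated response element (GAAA, any 2 bases, GAAA) was in 3 of the 46 promoters, 6.52%, against 2.98%. The matches were in Psmb3, Psmd4 and Psmd9, and the immunoproteasome and activator genes had none. The core of the sites of ETS factors, CCGGAAG, was in 14 promoters of 13 genes, 30.4%, against 6.91% of all promoters. These genes were 3 of 5 matched ATPase genes, 3 of 6 matched lid genes, 2 of 3 other base genes, 2 of 5 activator genes, 1 of 3 matched core chaperone genes, 1 of 7 alpha subunits and the partner gene Psmc3ip. None of the 3 matched constitutive beta subunits or the 3 immunoproteasome genes had a match. The part of ETS sites in the order of the arrays was not tested. None of these motifs contains another, and a match of letters is a description, not a site in use. The first lines show ETS core matches of 7 of the 13 genes, the 3 ATPases with a match and 4 further genes as examples, chosen after the matches were seen, on the strand of the gene with the match in capitals.
Psmc1 (chr12:100110154-100110200, plus strand): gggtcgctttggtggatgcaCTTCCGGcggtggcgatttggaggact
Psmc2 (chr5:21786703-21786746, plus strand): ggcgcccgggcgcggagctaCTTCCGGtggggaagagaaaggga
Psmc6 (chr14:45329704-45329750, plus strand): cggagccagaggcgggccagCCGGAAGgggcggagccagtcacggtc
Psma6 (chr12:55398673-55398719, plus strand): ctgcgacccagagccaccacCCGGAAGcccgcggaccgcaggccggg
Psmd12 (chr11:107479491-107479527, plus strand): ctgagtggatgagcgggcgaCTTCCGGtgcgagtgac
Psmd4 (chr3:95042713-95042759, minus strand): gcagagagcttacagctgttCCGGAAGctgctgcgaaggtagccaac
Psme4 (chr11:30771702-30771748, plus strand): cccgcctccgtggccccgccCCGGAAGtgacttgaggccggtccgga
The next lines show the antioxidant response element core of the catalytic gene Psmb6 and of the chaperone gene Psmd9, and the interferon element core of Psmb3, the gene with the lowest difference.
Psmb6 (chr11:70525328-70525356, plus strand): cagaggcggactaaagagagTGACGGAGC
Psmd9 (chr5:123228139-123228187, plus strand): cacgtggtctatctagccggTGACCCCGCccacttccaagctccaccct
Psmb3 (chr11:97703251-97703300, plus strand): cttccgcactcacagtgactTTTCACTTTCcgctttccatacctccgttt
The lines of Psmc1, Psmc2 and Psmd12 hold the reverse complement CTTCCGG, and the line of Psmb3 the reverse complement of the interferon element core. No match bears on whether a factor was bound in these cells.

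Of 10 listed proteasome genes outside the symbol rule, 8 were measured, 4 higher and 4 lower (median -0.04), and 0 passed limma's adjusted threshold. Pomp, the maturation factor of the core, read 7.89, 7.63, 7.55 and 7.72 in control and 7.25, 8.37, 7.51 and 7.98 in IDE-KD cells. As in most of the 50 genes, arrays 2 and 4 were high and arrays 1 and 3 low in IDE-KD cells, and the difference was 0.08 (SE 0.21). Sem1, a small lid subunit, read 9.01, 8.81, 9.13 and 8.96 in control and 9.02, 9.38, 8.70 and 8.86 in IDE-KD cells, with overlapping groups and a difference of 0.01 (SE 0.15). The deubiquitinase gene Usp14 differed by -0.21 (SE 0.20) and Ecpas, which encodes a proteasome adaptor, by -0.16 (SE 0.13). Adrm1 had no matching row and was not analysed here.

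Of the NFE2L1 pathway 8 of 9 genes were measured, 3 higher and 5 lower (median -0.01). Nfe2l1 itself read 9.74, 9.70, 9.78 and 9.74 in control and 10.04, 9.53, 9.71 and 9.68 in IDE-KD cells. Its highest value was IDE-KD array 1, where the mean of the proteasome genes was lowest, and its lowest was IDE-KD array 2, where that mean was highest. IDE-KD arrays 3 and 4 read 9.71 and 9.68, where that mean was -0.13 and 0.14. The SD of Nfe2l1 over the control arrays was 0.03. A link between Nfe2l1 and the proteasome values was not tested. The group difference of Nfe2l1 was -0.0008 (SE 0.13). Ngly1, which encodes the glycanase that processes NFE2L1, differed by 0.22 (SE 0.13), and Maff, a small MAF partner gene, by 0.18 (SE 0.16) at levels below the median array control row.

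In the remaining lists, 0 genes passed the adjusted threshold. Uba6, an E1 enzyme gene, was the 1 measured gene of 6 in its list and differed by -0.06 (SE 0.13). Of 10 measured shuttle factor and VCP genes 3 were higher and 7 lower (median -0.05), with the segregase gene Vcp at -0.24 (SE 0.13) and the shuttle gene Ubqln1 at -0.15 (SE 0.13). Of 10 measured MHC class I genes 4 were higher and 6 lower (median -0.02). B2m, the light chain of MHC class I, read 9.07, 9.12, 8.69 and 8.82 in control and 8.55, 9.79, 8.94 and 9.31 in IDE-KD cells, again with IDE-KD arrays 2 and 4 high, and differed by 0.23 (SE 0.22). IDE-KD arrays 1 and 3 were both below arrays 2 and 4 for 4 of the 10 MHC class I genes. The share was 24.2% of all tested rows and 41.9% of rows with a mean level of 7 to 10. Tap2, a peptide transporter gene, differed by -0.11 (SE 0.14).

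Of 9 measured interferon signalling genes 6 were higher and 3 lower (median 0.16), and 2 had an unadjusted p under 0.05 with groups that did not overlap, against 2.80% of all rows without overlap and, at that p, 2.69% higher and 1.91% lower. Ifngr2, a subunit of the interferon gamma receptor, read 6.68, 6.90, 6.61 and 6.78 in control and 7.003, 7.02, 6.95 and 7.10 in IDE-KD cells, a difference of 0.28 (SE 0.12). Jak1, a kinase of interferon receptors, read 6.92, 6.70, 7.01 and 6.75 in control and 6.55, 6.56, 6.37 and 6.66 in IDE-KD cells, a difference of -0.31 (SE 0.12). The adjusted p from limma over all rows was 1.00 for both.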

How the data were processed

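The authors deposited log2 expression values, 1 column per array; RMA, oligo and limma are named in the submitters' processing notes, without versions or roles. RMA in its usual form equalises the distributions of the arrays, so a change in total RNA per cell would not be seen, and low signals are compressed. Of 29129 rows, 22142 transcript clusters were tested, and 6923 array control rows and 64 unplaced rows were left out. Labelling started from 1 µg of RNA. The values were used as deposited in limma 3.58.1 (lmFit, eBayes; R 4.3.3), as IDE-KD minus control over 8 arrays without covariates, adjusted over all rows at 0.05. The fit was tried on simulated data with independent noise for each row and equal spread in both groups. These arrays share an order across genes and spread unequally, so the simulation does not vouch for the fit here. The number of arrays limits the precision. Values in all 8 arrays are given for Psmb3, Psmc5, the measured catalytic subunits, and the genes with the highest and lowest difference of each class. Outside the family, Ide, Gcg, the 2 genes with the smallest unadjusted p of each pathway list, and Nfe2l1, Pomp, Adrm1 and Sem1 whatever their values, are named, in part as differences only; Cd3e and Ptprc were named after their values were seen. The members, classes and lists were chosen with earlier results of these data known. Alternatives were other normalizations, filters on dim rows, other variance models, array weights, a replicate block and leaving out arrays. Coordinates are those of the RefSeq promoter table, and no source used here names the build of the array's probes.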

Additional observations from a re-analysis of the deposited data

Results flagged for a closer look

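In 6 of 100 groups of 4 arrays (50 genes in 2 groups), 1 array stood apart from the other 3 by a gap that was more than 0.829 of the group's range. Chance flags about 1 in 20 such groups. In control cells the gap was 0.839 of the range for Psma3 (array 1, low), 0.904 for Psma5 (array 4, high), 0.886 for Psmb10 (array 4, high) and 0.858 for Psme2b (array 3, low). In IDE-KD cells it was 0.834 for Psmd11 (array 2, low) and 0.889 for Psmd13 (array 1, low). In log2 units these gaps were between 0.085 (Psma3) and 0.35 (Psmb10).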

How the results depend on the processing

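No setting run gave a member an adjusted p under 0.05, which says little about stability, since no row of the table, Ide included, passed it over all 8 arrays. At an unadjusted p under 0.05 there were 0 to 2 genes, with 2 without IDE-KD replicate 2 and with arrays 2 and 4 of both groups left out. The shares of all rows under these settings are not given here, so nothing is read from these counts. Over all 8 arrays the shares were 2.69% higher and 1.91% lower. The median difference over the 50 genes, 0.0048, was -0.0087 after subtracting array medians, 0.02 after quantile normalization and 0.03 after cyclic loess, and -0.07 to 0.08 without single arrays. With arrays 1 and 3 of both groups left out it was 0.12, with 39 genes above 0. With arrays 2 and 4 of both groups left out it was -0.12, with 13 genes above 0 and a median of -0.27 for the activators, against -0.02 over all arrays. Both settings were added after the values were seen and restate the order of the arrays, which fixes their direction because the IDE-KD arrays spread wider than the control arrays; no stability is read from them. Scaling to 1 mean and SD was also added then. Same-numbered arrays had correlated deviations from their group means of 0.102, 0.129, 0.0876 and 0.0985 over all rows, not all above 0.1, and not every array correlated best with its own number, so the numbers were not taken as pairs. With the replicate block, 0 members passed. The median stayed at 0.0048 by design, since each replicate number holds 1 array of each group and only the SEs could change. Low signals limit Psma8, Psmb11, Psmg3, Psmg4 and Psmb9. Psmb10, Psmd5, Psmd9, Psmd10, Psme2b and Psmc3ip also had means below 6.87, the 95th percentile of the intron control row means.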
